A study of Mus musculus with 16 samples.

Results

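The lysosomal proton pump, the main lysosomal membrane proteins and a set of lysosomal hydrolases and other lumenal proteins were followed in mouse retinal microglia after injury of the optic nerve. The set has 37 genes of the 55385 in the deposited table, picked by name: 6 genes of the V0 sector of the pump, 8 of its V1 sector, 2 accessory subunits, 7 membrane proteins, 13 hydrolases and lumenal proteins, and the regulator Tfeb. Cathepsins and prosaposin were left out on purpose.

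Gene expression was measured by bulk RNA sequencing in 16 libraries of cells sorted from retina of Iba1-EGFP mice, a strain in which green fluorescent protein reports Iba1 (Aif1), a protein made by microglia and also by other macrophages. All 4 groups carried the reporter. The 4 libraries of day 0 came from mice of 15 weeks that had no treatment, so that no sham operation enters the comparison. The other 12 came from retina at 2, 4 and 7 days after optic nerve crush, 4 each, from mice of 13 weeks at days 2 and 4 and of 16 weeks at day 7. Age and day can therefore not be told apart, except between days 2 and 4, which have the same age. The first 4 digits of a code in the sample titles separate replicates 1 and 2 of every day from replicates 3 and 4. In full, the code also differed between days. Days 2 and 4 shared no full code, nor did days 0 and 7, and the first 4 digits do not account for this. Titles begin with the letter F for 2 libraries, replicates 3 and 4 of day 2, and with M for the other 14. The labels state neither what the code and letter stand for nor how many animals gave a library. The p-values therefore reflect only how much these libraries differed, which may be technical.

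Lysosomes break down material taken up by phagocytosis, endocytosis and autophagy, a large part of the work of microglia in a tissue with dying neurons. Their hydrolases need an acid lumen, which the vacuolar ATPase provides: the V1 sector in the cytosol hydrolyses ATP, and the rotation this drives lets the membrane-bound V0 sector carry protons into the lumen. Many genes of lysosomal proteins hold a CLEAR element in the promoter, a site for the factor TFEB and its relatives around the letters CACGTG, and Cd68 and Lamp1 are in common use as markers of the lysosomal content of phagocytes.

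The promoter letters are shown for the members that hold CACGTG, the core that these members share and that the choice of genes did not use. The promoter table from RefSeq (GRCm38.p6) held 31 of the 37 genes, with 300 bases each, from 250 before to 50 after the start. CACGTG, which reads the same on both strands, was in the window of 10 of these 31 genes (32.3%), against 8.09% of all 27025 genes in the table. The longer form TCACGTGA, which contains it, was in 5 of 31 (16.1%) against 1.12%. A still longer form, with G before and C after these letters, was in 0 of 31 against 0.370%. In capitals is CACGTG, and each stretch runs 5′ to 3′ on the strand of its gene. For Gla, 1 of its 2 matches is shown. The RefSeq start can differ from that of the deposited gene. The stretches of Atp6v0e, Atp6v1a and Lgmn lie inside the deposited bounds, whose 5′ ends are at chr17:26663231, chr16:44139705 and chr12:102439813.
Lamp1, chr8:13159081-13159160, + strand: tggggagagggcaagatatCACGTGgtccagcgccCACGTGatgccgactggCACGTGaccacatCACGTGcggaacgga
Mcoln1, chr8:3500429-3500486, + strand: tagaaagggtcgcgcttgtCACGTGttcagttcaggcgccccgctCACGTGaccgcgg
Atp6v0b, chr4:117887330-117887389, - strand: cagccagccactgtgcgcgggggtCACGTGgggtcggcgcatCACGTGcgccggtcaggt
Atp6v0d1, chr8:105566050-105566104, - strand: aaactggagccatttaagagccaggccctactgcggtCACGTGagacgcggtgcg
Atp6v0e, chr17:26676386-26676415, + strand: ttagcgcgccgatCACGTGagcctctgttg
Atp6v1a, chr16:44139360-44139409, - strand: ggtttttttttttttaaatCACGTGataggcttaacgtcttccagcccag
Gla, chrX:134601182-134601211, - strand: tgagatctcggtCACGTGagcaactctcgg
Lgmn, chr12:102439113-102439162, - strand: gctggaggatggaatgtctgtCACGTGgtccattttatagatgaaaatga
Glb1, chr9:114401008-114401057, + strand: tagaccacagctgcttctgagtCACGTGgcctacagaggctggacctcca
Gaa, chr11:119267803-119267852, + strand: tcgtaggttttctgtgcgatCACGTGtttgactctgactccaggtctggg
The window of Lamp1 held 4 matches, the most among the members, and those of Mcoln1, Atp6v0b and Gla held 2.

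The 3 members called on day 4 and described below, Atp6v0c, Cd68 and Gusb, were all without CACGTG in this window, and stretches of Atp6v0c and Cd68 are shown as examples. Other motifs searched on both strands were GAGGAAGT, a form of the PU.1 site of macrophages, and TGANTCA, a loose form of the AP-1 site in which N is any base. GAGGAAGT was found for Gla and Gusb, 2 of 31 members (6.45%) against 3.69% of all genes. TGANTCA was found for Atp6v0a1, Cd68, Glb1 and Neu1, 4 of 31 (12.9%) against 8.97%. The window of Cd68 held it at 2 places, in capitals here, and the stretch of Atp6v0c is given in lower case throughout. The matches describe letters only.
Cd68, chr11:69666171-69666370, - strand: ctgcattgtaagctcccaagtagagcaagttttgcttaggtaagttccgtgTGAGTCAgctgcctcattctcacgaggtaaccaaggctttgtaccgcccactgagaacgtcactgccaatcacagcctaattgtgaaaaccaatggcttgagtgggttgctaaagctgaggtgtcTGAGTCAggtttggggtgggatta
Atp6v0c, chr17:24169679-24169878, - strand: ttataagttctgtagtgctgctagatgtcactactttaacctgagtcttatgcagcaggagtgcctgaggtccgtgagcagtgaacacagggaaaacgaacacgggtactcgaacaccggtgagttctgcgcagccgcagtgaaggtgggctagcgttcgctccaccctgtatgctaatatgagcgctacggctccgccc

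Values are FPKM, a level per gene length and per library size. The libraries held between 8647276 and 15708302 reads on genes, and 1 read equalled 0.0637 to 0.116 FPKM for a gene of 1 kb. All 10 microglia markers, among them Cx3cr1 and Tmem119, were above 0 in every library, with a summed level of 3118 to 12276 FPKM on day 0, 6651 to 12274 on day 2, 6234 to 8531 on day 4 and 4964 to 8679 on day 7. RNA of other retinal cells was present: the 10 rod markers summed to between 1505 and 10654 FPKM. The 10 markers of Mueller glia and astrocytes summed to between 588 and 6539 FPKM, with Apoe alone at 487 to 6476. Which cells the Apoe RNA came from was not tested, and Aqp4 of the same list was at 0 in every library of day 4. Bipolar cell markers summed to 52.5 to 397 FPKM on day 0 and to 3.99 to 54.6 on day 4. Summed levels over all libraries were 12.1 to 1817 FPKM for cones, 0.232 to 24.9 for amacrine and horizontal cells and 0.790 to 72.0 for ganglion cells. They were 0.109 to 385 FPKM for endothelial cells and pericytes, 0 to 234 for erythrocytes, 0 to 3.37 for neutrophils and 0 to 30.8 for T and B cells. Among the other macrophage lines, 6 monocyte markers summed to 0.155 to 41.7 FPKM, with Ccr2 at or under 0.18, and 6 markers of border-associated macrophages to 12.6 to 350 FPKM. The library of day 0 replicate 1 stood apart, with the lowest microglia sum and the highest rod sum of all 16. In bulk samples, fewer cells of a type and less RNA per cell cannot be told apart.

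On day 0 the level per length differed widely among the members. Legumain (Lgmn), an asparaginyl protease, was the highest at 762 ± 341 FPKM (SD, n = 4). It was followed by Laptm5, a lysosomal membrane protein of blood cells, at 632 ± 352, and Lamp1, a main glycoprotein of the lysosomal membrane, at 570 ± 293. Hexa, a lysosomal glycosidase, stood at 502 ± 268, Cd68 at 448 ± 277 and granulin (Grn) at 417 ± 213. These 6 genes made up 64.7% of the FPKM of all 37. The highest pump subunits were Atp6v1g1 at 241 ± 54.0 and Atp6v1f at 176 ± 58.3 FPKM. At the other end were Tfeb at 2.00 ± 2.36, Gla at 0.857 ± 1.52 and Atp6v0d2 at 0.0650 ± 0.0760 FPKM. The ranges over the 4 libraries overlapped for every pair of neighbours in this order. In all 16 libraries 32 members were above 0 and 27 were at 1 FPKM or more.

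The test covered the 14795 genes that reached 1 FPKM in 4 or more libraries, 36 of the 37 members among them. The model was limma on log2(FPKM + 1), all changes below are on that scale, and a gene was called at a Benjamini-Hochberg adjusted p under 0.05 over all genes tested. Against day 0, members were called on day 4: 3 of 36 (8.33%), all higher, a share near that of all genes tested, of which 5.34% were called in either direction and 4.62% higher. They were Atp6v0c of the pump, the membrane protein Cd68 and the hydrolase Gusb, and none of the 3 was called without the filter on low values. On day 2, 0 of 36 members were called against 0.311% of all genes, with 5 members at an unadjusted p under 0.05 (13.9%, against 9.73% of all genes). On day 7, 0 were called against 0.406%, with 10 at an unadjusted p under 0.05 (27.8%, against 12.1% of all genes). Day 4 against day 2 gave 1 member, Atp6v0c, higher (2.78%, against 0.453% in either direction and 0.433% higher), and day 7 against day 4 gave 0 (against 1.63%), with 4 at an unadjusted p under 0.05 (11.1%, against 16.3%). The day 0 libraries enter all 3 comparisons with the injured days.

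**Figure D1:**
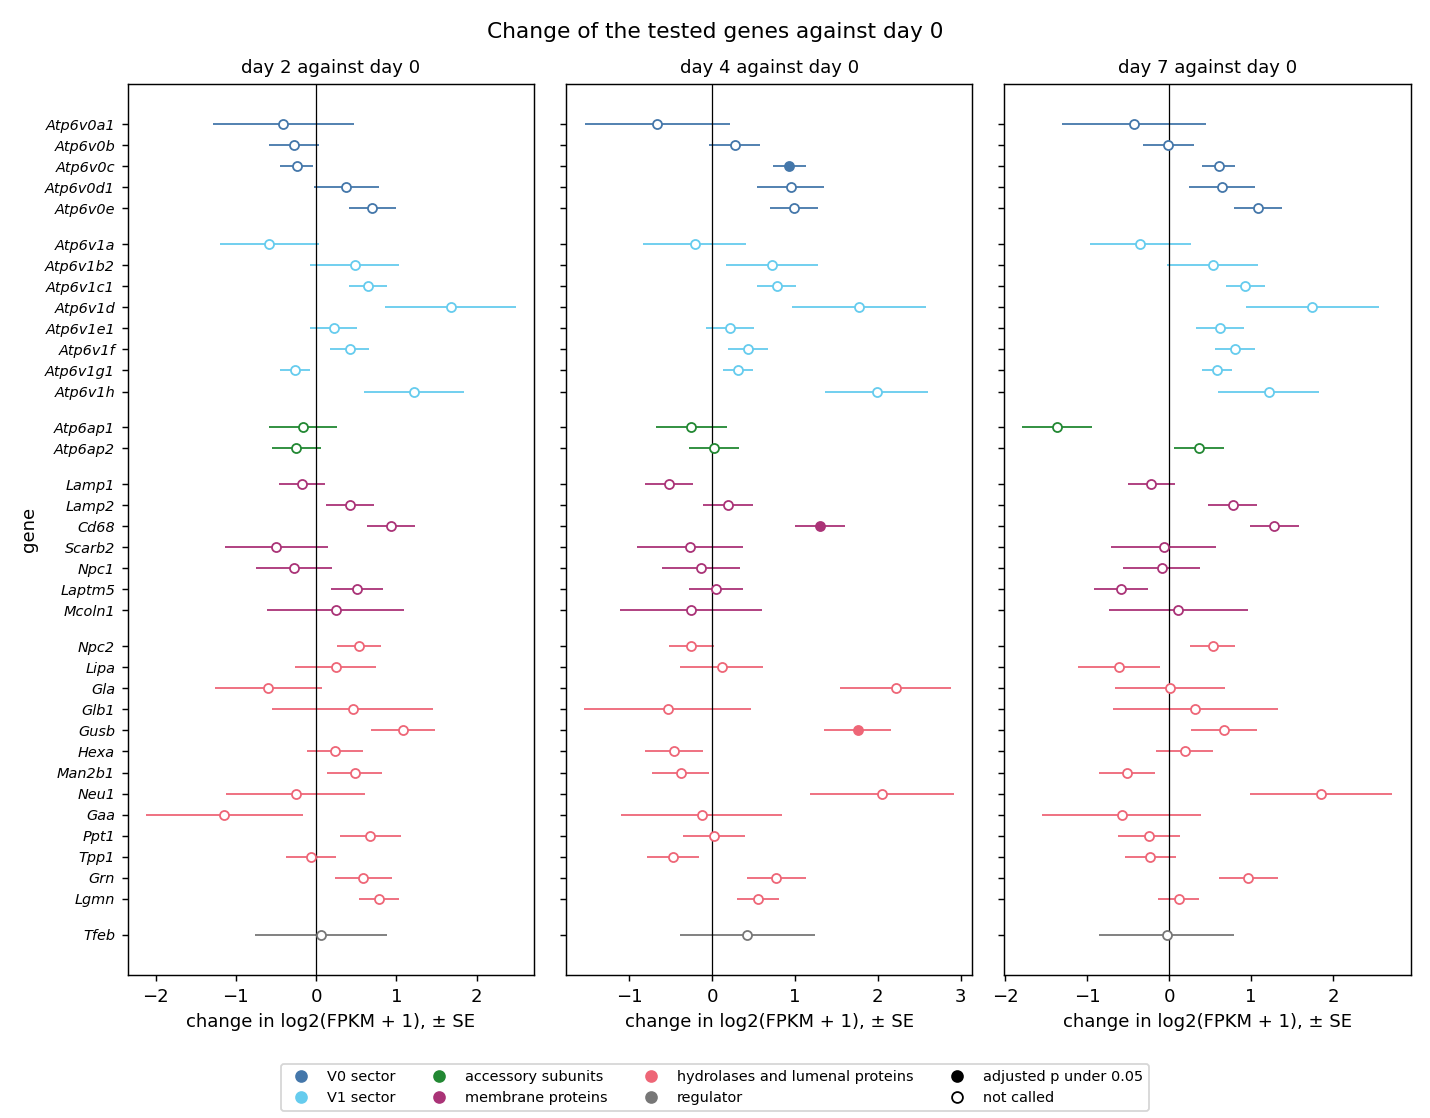
Change of the 36 tested members on days 2, 4 and 7 against day 0, in log2(FPKM + 1), with bars for the standard error, by role; filled points had an adjusted p under 0.05. Only Atp6v0c, Cd68 and Gusb on day 4 are filled, and with the libraries rescaled by median-of-ratios factors none would be.

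The scale of the libraries bears on every day 4 value. The median change of all 14795 genes on day 4 against day 0 was 0.16, and it was -0.18 after each library was divided by a median-of-ratios factor (from 8443 genes above 0 in all libraries), a shift of -0.33. The median of the 36 members went from 0.20 to -0.26, a change of sign, and the sign of 9 of them changed. Under that scaling the share of higher genes among those called fell from 684 of 790 to 153 of 272, and no member was called in any of the 5 comparisons, with Atp6v0c at 0.46 (adjusted p = 0.238), Cd68 at 0.83 (adjusted p = 0.134) and Gusb at 1.29 (adjusted p = 0.117). On day 7 against day 0 the shift was -0.02, and on day 2 it was -0.12. It was -0.20 from day 2 to day 4 and 0.31 from day 4 to day 7. Which scaling is closer to the RNA of the cells was not tested.

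The 14 subunits of the V0 and V1 sectors summed to a higher level on days 4 and 7 than on day 0 in the values as deposited. Such a sum is weighted to the subunits of highest level. On day 0 these were Atp6v1g1, Atp6v1f, Atp6v0b and Atp6v0c, with means of 241, 176, 119 and 94.8 FPKM. Next was Atp6v0e at 45.3, and limits on the values of Atp6v0b and Atp6v0c are given below. The sum was 852, 953, 849.8 and 855 FPKM in replicates 1 to 4 of day 0 and 945, 1017, 898 and 825 on day 2. It was 1119, 1189, 1413 and 1229 on day 4 and 1192, 1191, 1296 and 1627 on day 7. Days 0 and 2 overlapped, and every library of days 4 and 7 lay above every library of days 0 and 2. After median-of-ratios scaling the day 4 sums, 914 to 1100, overlapped those of day 0, 915 to 1147, while the day 7 sums, 1302 to 1589, still lay above all of them. The hydrolases and lumenal proteins gave no such separation, with sums of 1054 to 3093 on day 0, 2077 to 3889 on day 2, 2387 to 2855 on day 4 and 1795 to 3743 on day 7. Over the libraries of day 0 the lumenal sum went with the microglia markers, at 1054 in replicate 1 and 3093 and 3069 FPKM in replicates 3 and 4, whereas the pump sum of replicate 1 was within the range of the others. The ratio of the lumenal sum to the sum of the microglia markers, which does not depend on library scale, was 0.250 to 0.338 on day 0, 0.296 to 0.317 on day 2, 0.291 to 0.385 on day 4 and 0.352 to 0.431 on day 7. By this ratio every library of day 7 lay above every library of days 0 and 2, and the other pairs of days overlapped. The same ratio for the pump sum was 0.0696 to 0.273 on day 0 and 0.0673 to 0.153 on day 2. It was 0.159 to 0.180 on day 4 and 0.149 to 0.240 on day 7. Every library of day 4 thus lay above every library of day 2, and all other pairs of days overlapped. The ratio of the pump sum to the lumenal sum overlapped between all days. It was 0.275 to 0.808, 0.212 to 0.490, 0.417 to 0.569 and 0.346 to 0.674 on days 0, 2, 4 and 7.

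**Figure D2:**
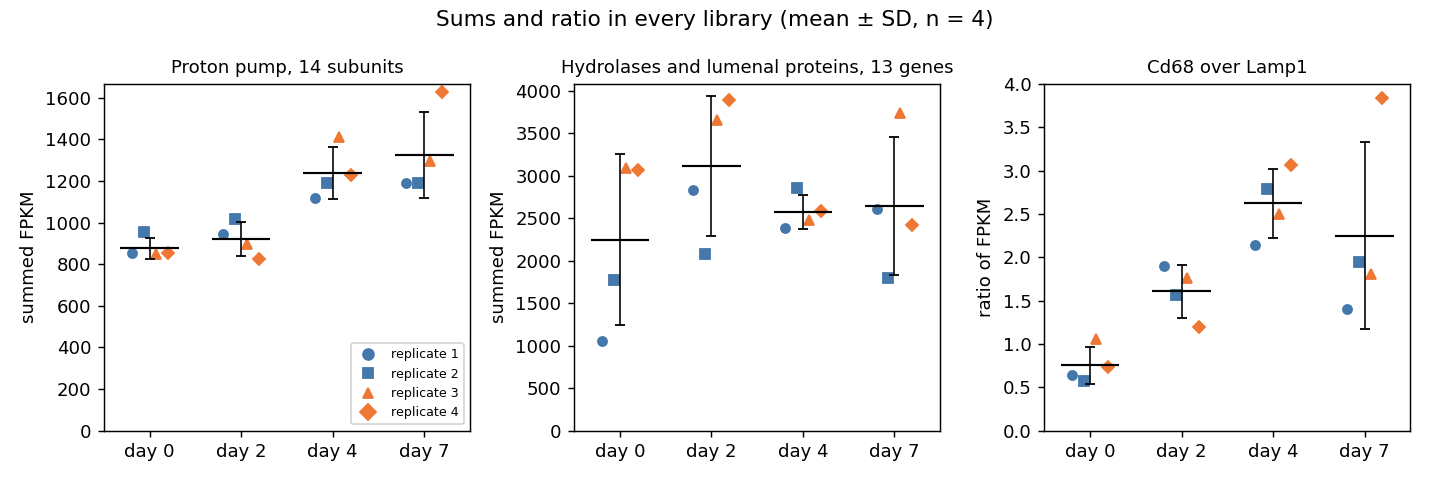
Summed FPKM of the 14 pump subunits and of the 13 hydrolases and lumenal proteins, and the ratio of Cd68 to Lamp1, in each of the 16 libraries; bars are the mean ± SD (n = 4), and colour and shape mark the replicate number. The pump sums of days 4 and 7 lie above those of days 0 and 2, which for day 4 does not hold after median-of-ratios scaling, and the lumenal sums overlap on all days.

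In the V0 sector, the proton channel in the membrane, 5 of 6 genes were tested, 4 had a day 4 change above 0 and 1 was called. The median was 0.93 against 0.16 for all genes, and 0.46 against -0.18 after median-of-ratios scaling, when 3 of 5 were above 0. Atp6v0c (chr17:24163866-24169702, - strand) encodes the c subunit, of which most of the rotating ring is built. It stood at 88.2, 94.8, 107 and 88.9 FPKM in replicates 1 to 4 of day 0, and at 78.0, 100.4, 71.0 and 72.2 on day 2. It reached 149, 191, 208 and 183 on day 4 and was at 138, 126, 131 and 188 on day 7. All libraries of days 4 and 7 were above all of days 0 and 2, also after median-of-ratios scaling for day 4 and day 7 against day 0 and day 4 against day 2. The day 4 change against day 0 was 0.93 ± 0.20 (SE; adjusted p = 0.0162), with 0.88 in replicates 1 and 2 and 0.99 in replicates 3 and 4. Against day 2 it was 1.18 ± 0.20 (adjusted p = 0.0208), with 0.92 and 1.43. Day 7 differed from day 0 by 0.60 without passing the test (adjusted p = 0.245), and day 2 by -0.24 (adjusted p = 0.761).

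The call of Atp6v0c on day 4 against day 0 was lost without day 4 replicate 2 (0.90, adjusted p = 0.0621) or day 4 replicate 3 (0.87, adjusted p = 0.0512). That against day 2 was lost without day 2 replicate 1, 3 or 4 or day 4 replicate 2, 3 or 4, with changes of 1.11 to 1.18 and adjusted p of 0.0618 to 0.0902. It was also lost with the replicate number as a block (1.18, adjusted p = 0.0549) and without the 2 libraries with the letter F (0.93, adjusted p = 0.2203). With the full title code as covariate both calls of Atp6v0c were lost (0.77, adjusted p = 0.117, and 1.10, adjusted p = 0.202). The value of Atp6v0c is uncertain, since its pseudogenes may share reads with it, which was not tested: the pseudogene Atp6v0c-ps2 was listed at 212 to 648 FPKM and Atp6v0c-ps1 at 14.4 to 41.5, and the reads of Atp6v0c were not whole numbers in 15 of 16 libraries. Among the members the same held in 16 libraries for Laptm5, 15 for Atp6v1g1 and 13 for Lamp1. Atp6v0c-ps2 itself had a day 4 change of 0.96 (adjusted p = 0.0109).

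The other V0 subunits did not pass the test. Atp6v0e, a small subunit whose promoter is shown above, was at 19.7, 45.0, 49.1 and 67.4 FPKM on day 0, 65.3, 75.9, 74.6 and 58.1 on day 2, 75.0, 87.7, 92.1 and 79.4 on day 4 and 77.4, 62.4, 113 and 115 on day 7. The day 4 libraries were all above those of day 0, with a change of 0.99 (adjusted p = 0.0633), and day 7 differed by 1.08 (adjusted p = 0.152). Without day 0 replicate 4, the highest of its group, the day 4 change of Atp6v0e was 1.16 and passed the test (adjusted p = 0.0479). Atp6v0d1, which joins the ring to the central stalk in most cells, was at 36.4, 34.5, 31.8 and 10.1 FPKM on day 0 and at 51.4, 49.6, 53.0 and 46.3 on day 4, again without overlap (0.95, adjusted p = 0.189). Its paralog Atp6v0d2, known from osteoclasts and other macrophages, was at or under 0.145 FPKM in 15 libraries, no more than 4 reads. The exception was day 7 replicate 1, where it was at 6.51 FPKM from 171.5 reads, fractional reads included. Atp6v0b, a further ring subunit, was at 94.5 to 132 FPKM on day 0 and 79.5 to 209 on day 4, but 11.8% of its exon bases lie on those of the antisense gene Gm12841, which these unstranded libraries cannot separate. Atp6v0a1, the a subunit beside the ring, was at 5.18 to 30.1 FPKM on day 0 and 0.285 to 16.3 on day 4.

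In the V1 sector, which binds and hydrolyses ATP, all 8 genes were tested, 7 had a change above 0 on day 4 and 7 on day 7, and 0 were called on either day. The median was 0.58 on day 4 (0.11 after median-of-ratios scaling, with 4 of 8 above 0) and 0.71 on day 7, when the median of all genes was -0.07. Atp6v1c1, a subunit that joins the peripheral stalks to the membrane sector, was at 30.2, 35.9, 26.6 and 50.4 FPKM on day 0, 59.3, 50.8, 50.03 and 59.9 on day 2, 52.1, 57.5, 58.9 and 75.4 on day 4 and 55.9, 58.7, 85.7 and 71.4 on day 7. Days 4 and 7 did not overlap with day 0, with changes of 0.78 (adjusted p = 0.0689) and 0.93 (adjusted p = 0.127). Without day 0 replicate 4 the day 4 change of Atp6v1c1 was 0.93 and passed the test (adjusted p = 0.0478). Atp6v1g1, a part of the peripheral stalks and the highest V1 subunit on day 0, was at 237, 315, 186 and 227 FPKM there and at 368, 354, 332 and 367 on day 7. All 4 day 7 libraries were above day 0, with a change of 0.58 (adjusted p = 0.228). Atp6v1f, a small subunit of the central stalk, was at 109, 153, 245 and 196 FPKM on day 0 and 227, 231, 304 and 469 on day 7 (0.80, adjusted p = 0.207), with overlap.

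The largest fitted V1 changes on day 4 belonged to subunits with a library near 0 on day 0. Atp6v1h, a regulatory subunit that links ATP hydrolysis to an assembled pump, was at 10.9, 9.60, 3.14 and 0.0447 FPKM on day 0 and at 14.2, 20.8, 19.4 and 18.9 on day 4. The groups did not overlap, and the change was 1.99 (adjusted p = 0.0769). Atp6v1d, of the central stalk, was at 24.9, 17.9, 0.0168 and 29.7 FPKM on day 0 and 49.1, 35.7, 30.1 and 35.9 on day 4 (1.78, adjusted p = 0.229), again without overlap. The catalytic subunit Atp6v1a was at 12.6 to 43.0 FPKM on day 0 and 13.2 to 23.7 on day 4. Its partner Atp6v1b2 was at 7.33 to 83.0 and 29.1 to 95.4, and Atp6v1e1, of the peripheral stalks, at 26.8 to 45.2 and 33.1 to 53.0. Their ranges on both days overlapped. In every library the highest V1 level per length was that of Atp6v1g1 or Atp6v1f and the lowest that of Atp6v1h, Atp6v1a or Atp6v1d.

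**Figure D3:**
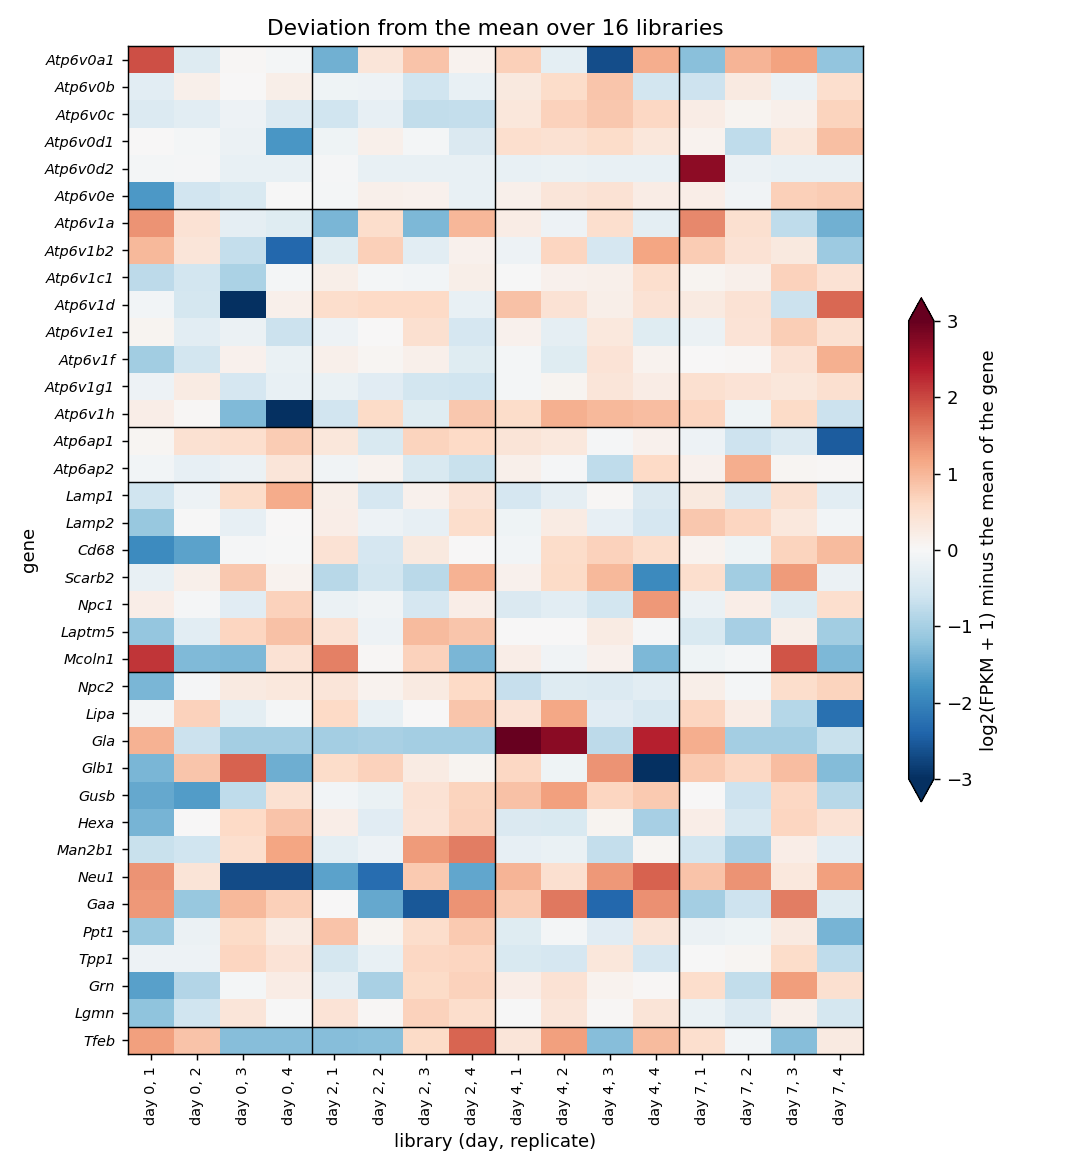
Deviation of log2(FPKM + 1) from the mean of each of the 37 genes in each of the 16 libraries, as deposited, with horizontal lines between roles and vertical lines between days. Atp6v0c is below its mean in all 8 libraries of days 0 and 2 and above it in all 8 of days 4 and 7, and several low genes such as Gla, Neu1 and Mcoln1 change from library to library within a day.

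Of the accessory subunits, which help to assemble and deliver the pump, 0 of 2 were called. Atp6ap1 was at 115, 152, 156 and 186 FPKM on day 0, 139.9, 79.5, 174 and 168 on day 2, 144, 137, 107 and 120.4 on day 4 and 99.0, 70.9, 82.1 and 18.6 on day 7. All 4 day 7 libraries lay below all of days 0 and 4, and after median-of-ratios scaling below those of day 0. The changes of -1.37 against day 0 (adjusted p = 0.216) and -1.12 against day 4 (adjusted p = 0.196) did not pass the test. Atp6ap2, the (pro)renin receptor, was at 109 to 167 FPKM on day 0 and 134 to 275 on day 7.

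Among the 7 membrane proteins, Cd68 rose on day 4 and the others were not called. The median of the group was -0.13 (-0.47 after median-of-ratios scaling), with 3 of 7 above 0. Cd68 (chr11:69664213-69666153, - strand), macrosialin, is a heavily glycosylated relative of the LAMP proteins. It was at 187, 230.0, 681 and 695 FPKM on day 0, 943, 488, 851 and 704 on day 2, 660.0, 1013, 1128 and 1002 on day 4 and 755, 639, 1110.1 and 1349.6 on day 7. Replicates 1 and 2 of day 0 were below every other library, and replicates 3 and 4 of day 0 overlapped with the injured days. The day 4 change was 1.30 ± 0.30 (SE; adjusted p = 0.0225), with 3 of 4 libraries above all of day 0, and it was 1.97 in replicates 1 and 2 and 0.63 in replicates 3 and 4. Within replicates 3 and 4 alone it did not pass the test (adjusted p = 0.251), nor without the covariate for the title code (adjusted p = 0.0836). It was lost without day 0 replicate 1 (1.07, adjusted p = 0.0564) or 2 (1.18, adjusted p = 0.0654) and without day 4 replicate 1 (1.34, adjusted p = 0.0530) or 2 (1.11, adjusted p = 0.0858). Days 2 and 7 differed from day 0 by 0.94 (adjusted p = 0.263) and 1.28 (adjusted p = 0.1005).

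Cd68 and Lamp1 stood in another ratio after injury than on day 0. Lamp1 was at 290, 399, 643 and 949.9 FPKM on day 0, 496, 312, 485 and 586 on day 2, 308, 364, 451 and 327 on day 4 and 537, 328, 615 and 352 on day 7, with a day 4 change of -0.52 (adjusted p = 0.325). The ratio of Cd68 to Lamp1, chosen after the values were seen and given without a test, was 0.646, 0.577, 1.06 and 0.732 in the day 0 libraries. It was 1.90, 1.56, 1.76 and 1.201 on day 2, 2.14, 2.79, 2.501 and 3.07 on day 4 and 1.41, 1.95, 1.81 and 3.84 on day 7. Every library of the injured days lay above every library of day 0, and as a ratio within a library it does not depend on library scale. A ratio shows an unequal change, not which of the genes changed. Of the exon bases of Lamp1, 9.31% lie on those of Grtp1 on the opposite strand (at most 83.1 FPKM), which these libraries cannot separate, and the part of Grtp1 in the ratio was not tested.

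**Figure D4:**
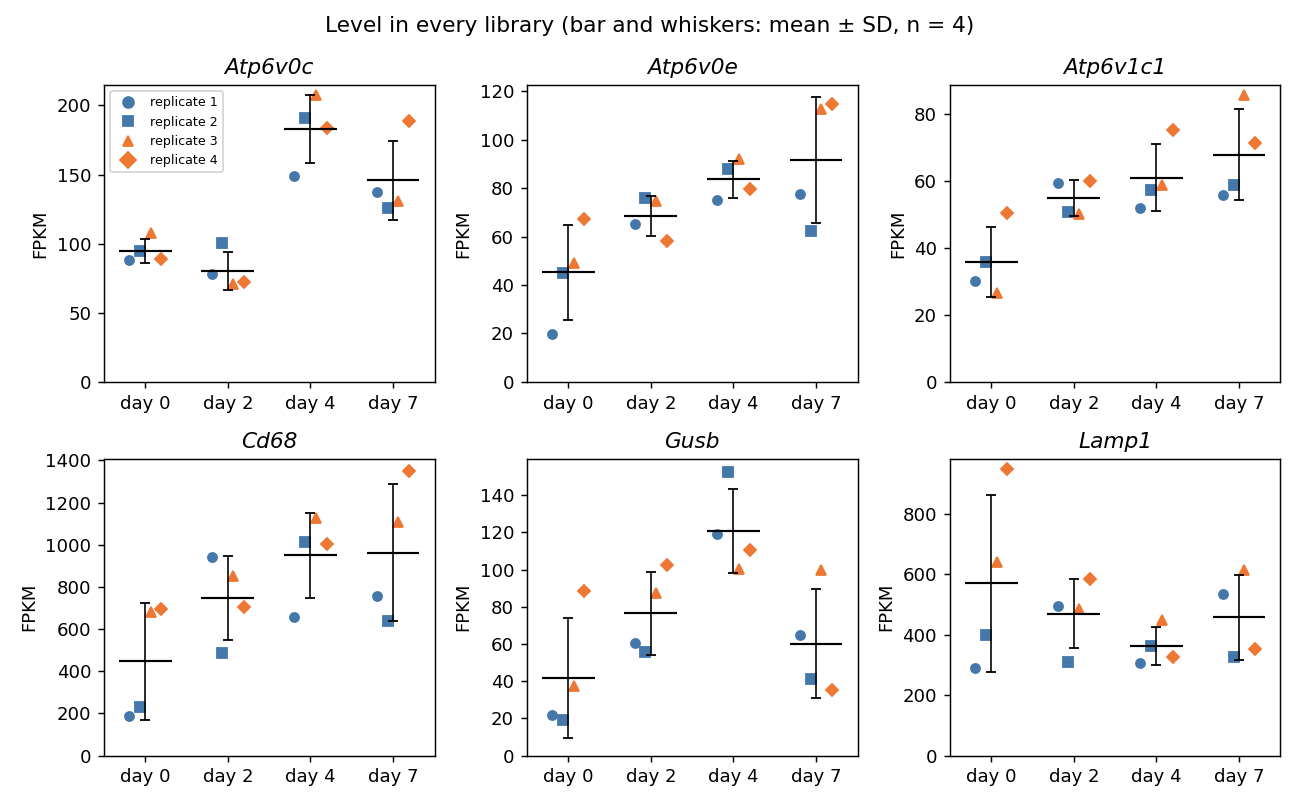
FPKM of Atp6v0c, Atp6v0e, Atp6v1c1, Cd68, Gusb and Lamp1 in each library, 4 per day; bars are the mean ± SD, and blue marks replicates 1 and 2, orange replicates 3 and 4. Atp6v0c on day 4 (149 to 208 FPKM) is clear of day 0 (88.2 to 107). For Lamp1 the day 0 libraries (290 to 949.9) spread over the whole range of the later days (308 to 615). For Cd68 they (187 to 695) overlap only the lower part of that range (488 to 1349.6).

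The other membrane proteins gave no call on any day. Lamp2, which also serves in chaperone-mediated autophagy, was at 36.1, 79.7, 67.5 and 81.0 FPKM on day 0 and 141, 126, 101 and 76.3 on day 7 (0.77, adjusted p = 0.3201). Scarb2 (LIMP-2), the receptor that carries glucocerebrosidase to lysosomes, was at 11.2, 14.8, 23.9 and 14.3 on day 0 and 14.7, 20.2, 26.9 and 2.81 on day 4 (-0.26, adjusted p = 0.853). Without day 4 replicate 4 the change of Scarb2 was 0.47. Laptm5 was at 242 to 999 FPKM on day 0, 534 to 645 on day 4 and 263 to 619 on day 7. The cholesterol exporter Npc1 was at 2.86 to 6.89 FPKM on day 0 and 2.34 to 11.02 on day 4. The calcium channel Mcoln1 (TRPML1) was at or under 10.4 FPKM everywhere and listed at 0 in day 2 replicate 4.

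Of the 13 hydrolases and lumenal proteins, Gusb rose on day 4 and the other 12 were not called, with a median of 0.02 (-0.45 after median-of-ratios scaling) and 7 of 13 above 0. Gusb (chr5:129989011-130003049, - strand), beta-glucuronidase, takes glucuronic acid off glycosaminoglycans. It was at 21.6, 19.4, 37.6 and 88.2 FPKM on day 0, 60.6, 55.7, 87.3 and 103 on day 2, 119, 152, 100.1 and 111 on day 4 and 64.7, 41.1, 99.8 and 35.4 on day 7. All 4 day 4 libraries were above day 0 and above day 7, as deposited but not after median-of-ratios scaling. The day 4 change was 1.76 ± 0.40 (SE; adjusted p = 0.0214), with 2.66 in replicates 1 and 2 and 0.86 in replicates 3 and 4, where it did not pass the test alone (adjusted p = 0.541). It was lost without day 0 replicate 1 (1.61, adjusted p = 0.0559) or 2 (1.56, adjusted p = 0.0642) and without day 4 replicate 1 (1.67, adjusted p = 0.0672) or 2 (1.54, adjusted p = 0.0851). Day 2 differed from day 0 by 1.08 (adjusted p = 0.358), and day 7 from day 4 by -1.09 (adjusted p = 0.187).

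The largest fitted changes on day 4 belonged to Gla and Neu1, both low and both listed at 0 in 2 libraries of day 0. Gla, alpha-galactosidase A, was at 3.13, 0.301, 0 and 0 FPKM on day 0, 0, 0.0274, 0 and 0 on day 2, 15.1, 12.1, 0.167 and 9.24 on day 4 and 3.32, 0, 0 and 0.280 on day 7. It was at 9.24 FPKM or more in 3 libraries, all of day 4, while day 4 replicate 3 overlapped with day 0. The change was 2.22 against day 0 (adjusted p = 0.0693), 2.81 against day 2 (adjusted p = 0.0823) and -2.21 for day 7 against day 4 (adjusted p = 0.112). Without day 4 replicate 3 the changes of Gla were 2.97, 3.57 and -2.96, and each passed the test (adjusted p = 0.0127, 0.0488 and 0.0246). Neu1, a sialidase, was at 15.4, 7.35, 0 and 0 FPKM on day 0 and 12.1, 7.93, 14.9 and 20.8 on day 4. Its change of 2.05 (adjusted p = 0.189) was -0.11 in replicates 1 and 2 and 4.22 in replicates 3 and 4.

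Lgmn, Hexa and Grn carried 69.5% to 81.8% of the summed FPKM of the 13 genes in every library, and none of them was called. Lgmn was at 391, 593, 1167 and 897 FPKM on day 0 and 1207, 928, 1446 and 1306 on day 2 (0.78, adjusted p = 0.264), and was at 621 to 995 on day 7. Grn, the progranulin gene, was at 180.4, 305, 536 and 648 on day 0 and 803, 335, 1333 and 779 on day 7 (0.97, adjusted p = 0.289). Hexa was at 161 to 769.9 FPKM on day 0 and 213 to 451 on day 4. Npc2, which hands cholesterol to NPC1, was at 166, 138, 156 and 194 FPKM on day 2, 79.4, 98.3, 97.0 and 103 on day 4 and 146, 123, 185 and 207 on day 7. Day 4 lay below days 2 and 7 without overlap, also after median-of-ratios scaling, with changes of -0.78 against day 2 (adjusted p = 0.263) and 0.78 for day 7 against day 4 (adjusted p = 0.164). Without day 0 replicate 1, which enters that comparison only through the shared spread and the genes tested, the latter passed (0.78, adjusted p = 0.0354).

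The remaining lumenal genes had no call and overlapped between day 0 and every injured day, as deposited. Ppt1, a thioesterase that removes palmitate from proteins, was at 70.2 to 228 FPKM on day 0 and 118 to 198 on day 4. The alpha-mannosidase Man2b1 was at 56.3 to 204 and 54.7 to 93.1, the peptidase Tpp1 at 52.8 to 92.8 and 41.1 to 75.1, and the acid alpha-glucosidase Gaa at 6.41 to 39.1 and 2.18 to 47.9. The beta-galactosidase Glb1 was at 5.87 to 63.2 and 0.0212 to 46.8, and Lipa, the acid lipase, at 6.29 to 13.4 and 5.36 to 18.8. Glb1 shares 5.49% of its exon bases with Tmppe on the same strand, and Hexa 12.8% with Tmem202 on the opposite strand.

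Tfeb, the transcription factor, was at 4.62, 3.36, 0 and 0 FPKM on day 0, 0, 0.00520, 2.60 and 7.03 on day 2, 2.08, 4.62, 0 and 3.62 on day 4 and 2.42, 1.26, 0 and 1.90 on day 7. It was listed at 0 in at least 1 library of every day, and the day 4 change was 0.43 (adjusted p = 0.814), of either sign in the replicate pairs (-0.25 and 1.10).

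Other genes of the same roles were taken from lists written for this work. Of 9 further pump subunits, most of them forms of particular tissues, 4 were tested and 0 were called on any day against day 0, with medians of -1.62, -1.60 and -1.52 on days 2, 4 and 7. Their summed level was 86.8 to 187 FPKM on day 0, 29.7 to 84.2 on day 2, 17.9 to 60.1 on day 4 and 56.7 to 118 on day 7. It was lower on day 2 and on day 4 than on day 0 in every library, as the sum of the bipolar markers was for 3 of 4 libraries of day 4; the part of these cells in it was not tested. Of 26 further hydrolases and lumenal proteins 23 were tested, and 0 were called (medians -0.06, -0.07 and -0.29). Of 17 further membrane proteins 13 were tested, and 0 were called (medians -0.23, 0.20 and -0.17). Of 16 further regulators 15 were tested and 1 was called, Lamtor5 on day 4 (medians 0.11, -0.12 and 0.29).

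Lamtor5 encodes a subunit of the Ragulator complex, which holds Rag GTPases and mTORC1 at the lysosome. It was at 108, 142, 119 and 60.5 FPKM on day 0, 129, 122, 167 and 109.7 on day 2, 243, 218, 270.0 and 197 on day 4 and 120.1, 224, 227 and 227 on day 7. All day 4 libraries lay above days 0 and 2. The change against day 0 was 1.16 ± 0.28 (SE; adjusted p = 0.0305), with 0.89 in replicates 1 and 2 and 1.43 in replicates 3 and 4. It was 0.69 after median-of-ratios scaling (adjusted p = 0.241). The call was lost without day 0 replicate 1 or 4 or day 4 replicate 1, 2 or 3 (0.88 to 1.19, adjusted p = 0.0501 to 0.0831).

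Counts of members without overlap describe the same libraries as the tests and are not further evidence. On day 4, 7 of 36 members had all 4 libraries above all of day 0 (19.4%, against 12.6% of all genes tested) and 0 had all below (against 1.89%). The 7 were Atp6v0c, Atp6v0d1, Atp6v0e, Atp6v1c1, Atp6v1d, Atp6v1h and Gusb, 6 of them pump subunits. After median-of-ratios scaling Atp6v0c alone remained, and Atp6ap1 and Tpp1 had all day 4 libraries below day 0. On day 7, 3 members were above day 0 (8.33%, against 2.51%), Atp6v0c, Atp6v1c1 and Atp6v1g1, and 1 below (2.78%, against 2.5%), Atp6ap1. After median-of-ratios scaling the day 7 members above were Atp6v0c, Atp6v0e, Atp6v1c1 and Cd68, with Atp6ap1 below. On day 2, 0 members were above (against 3.37%) and 0 below (against 1.35%). From day 2 to day 4 the members above were Atp6v0c, Atp6v0d1, Atp6v1g1 and Gla (11.1%, against 7.83%), and Npc2 was below (2.78%, against 1.69%). After median-of-ratios scaling they were Atp6v0c and Gla above and Hexa, Laptm5, Npc2 and Ppt1 below. From day 4 to day 7 Npc2 was above (2.78%, against 2.23%) and Atp6ap1 and Gusb were below (5.56%, against 8.66%). After that scaling Atp6v0e, Atp6v1f, Atp6v1g1, Hexa and Npc2 were above and 0 members below. The share over all genes was not computed after median-of-ratios scaling, so the rescaled members cannot be set against it.

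Markers of other cells also changed on the days at which these members did. On day 4 against day 0, Fcrls of the microglia list rose by 1.67. Glul of Mueller glia had a change of -2.05 and Lyve1 of border-associated macrophages of -2.95. Cabp5, Gng13 and Pcp2 of bipolar cells had changes of -4.50, -2.87 and -3.87, and all of these markers were called. Fcrls and Lyve1 do not stand for their lists. Above 0 were 5 of 10 microglia markers (median -0.02) and 3 of 5 tested markers of border-associated macrophages (median 1.06). It was 1 of 10 for Mueller glia and astrocytes and 0 of 10 for bipolar cells. On day 7, Plac8 of the monocyte list rose by 3.14, with Ccr2 at or under 0.05 FPKM, and Lyve1 had a change of -2.95, both called. Their part in the values of the members was not tested.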

How the data were processed

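The authors deposited FPKM for 55385 genes. Per the submitters' processing notes, STAR 2.7.2b and featureCounts 1.6.1 were used with the build GRCm38.p6 (mm10). The treatment of multi-mapped reads is not stated in the labels or the table. Per the labels' protocols, amplified cDNA of sorted cells was made into Nextera XT libraries, which do not mark strand. With the gene lengths in the table, the read total of each library was recovered (8647276 to 15708302). Whole reads (tolerance 0.02) made up 47.4% to 63.8% of a library's values above 0 and fractions the rest, so FPKM were tested, not counts. A value of 0 in a gene of 1 kb allows up to 0.191 to 0.347 FPKM (3 reads), for counting error only.

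Groups came from the labels. Genes at 1 FPKM or more in 4 libraries were tested on log2(FPKM + 1), a scale that understates the change of low genes, with limma 3.58.1 in R 4.3.3 (eBayes with trend, two-sided, Benjamini-Hochberg, threshold 0.05). A single fit held all 16 libraries, a mean per day and the title code's first 4 digits as covariate, and gave 5 comparisons. Changes within replicates 1 and 2 or 3 and 4 came from a fit with the interaction, in which no member differed between the pairs after adjustment. Values in full are given for each called member, for the uncalled members with the largest day 4 changes in each larger role, for both Atp6v0d genes and for Tfeb; the others shown were picked after their values were seen. Further genes are given as counts, and named where called. The members, the lists of roles, further genes and cell markers were chosen with earlier results of these data known. The fit was tested on simulated data. Alternatives were other pseudocounts (0.1 and 5), filters, covariates, scaling, a replicate block and leaving out libraries.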

Additional observations from a re-analysis of the deposited data

Results flagged for a closer look

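Within a day, 15 of 148 combinations of member and day held a library far from the other 3 (gap over range above Dixon's critical value). Chance flags about 1 in 20 where values are normally distributed, which was not tested for these FPKM. A group with 3 values of 0 and 1 above 0 is always flagged. At the high end were Atp6v0a1 in day 0 replicate 1 (30.1 FPKM), Gla in the same library (3.13), Neu1 in day 2 replicate 3 (10.1), Scarb2 in day 2 replicate 4 (28.4), Npc1 in day 4 replicate 4 (11.02), Laptm5 and Tpp1 in day 4 replicate 3 (645 and 75.1), Atp6ap2 in day 7 replicate 2 (274.8) and Gaa in day 7 replicate 3 (46.1). Day 7 replicate 1 was far above its group for Gla (3.32) and for Atp6v0d2 (6.51), whose other 15 values did not pass 0.145. Atp6v1d was low in day 2 replicate 4 (22.6). Flags at a handful of reads or fewer were Atp6v0d2 in day 2 replicate 1 (0.128) and day 4 replicate 2 (0.0185) and Gla in day 2 replicate 2 (0.0274). The day 4 and day 2 levels of Atp6v0c differed from each other by 1.18 on the log2 scale in a test of that difference (limma adjusted p = 0.0208).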

How the results depend on the processing

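Genes called over all genes tested moved by more than 1.5 times under several settings, in the order of days 2, 4 and 7 each against day 0, then days 4 to 2 and days 7 to 4 (46, 790, 60, 67 and 241 as reported). Without a filter on low values they were 14, 308, 13, 2 and 63. With the full title code as covariate they were 126, 379, 28, 0 and 104 (for the 0, 1509 at an unadjusted p under 0.05). With median-of-ratios factors day 4 against day 0 gave 272, and the last 2 counts were 23 and 76. Day 7 against day 0 gave 38 with a pseudocount of 0.1 and 39 with no covariate. The last 2 counts were 133 and 380 with a mean of at least 5 FPKM, and days 4 to 2 gave 148 with a pseudocount of 5. Without both F libraries, the first count was 1 and that of days 4 to 2 was 0 (1502 at an unadjusted p under 0.05). Replicates 1 and 2 alone gave 26, 321, 4, 1 and 0 (2261 at an unadjusted p under 0.05). Replicates 3 and 4 alone gave 1, 0, 0, 0 and 0 (1564, 1321, 1086 and 1175 at an unadjusted p under 0.05 for the last 4). Same-numbered libraries deviated together weakly at most (correlations of -0.06 to 0.23, and 5 of 16 libraries correlated best with their own number). With the replicate number as a block, the first and the last 3 counts were 30, 22, 31 and 152, and the block ended the call of Atp6v0c on day 4 against day 2. Leaving out each library in turn gave 8 to 78, 283 to 957, 16 to 57, 2 to 104 and 62 to 271 genes, and 0 to 0, 0 to 5, 0 to 0, 0 to 1 and 0 to 1 members. The 3 members called on day 4 against day 0 became 0 without a filter, with median-of-ratios factors and in replicates 3 and 4 alone, and 5 with a mean of at least 5 FPKM, which added Atp6v0e and Atp6v1c1. The 1 member called on day 4 against day 2 became 2 with a pseudocount of 5, which added Gla, and 0 without a filter, with the full title code, the block, median-of-ratios factors, without the F libraries and in either pair of replicates alone. Median-of-ratios factors changed the sign of 1, 9, 1, 9 and 11 of the 36 members in the 5 comparisons. Among the changes tracked under every setting, others that changed sign were Scarb2 on day 4 against day 0 (0.063 with the full title code, 0.39 in replicates 1 and 2 alone, and -0.58 to 0.47 with a library left out, 0.47 without day 4 replicate 4) and Neu1 (-0.11) and Tfeb (-0.25) in replicates 1 and 2 alone. Among those 11 was Atp6v0c, at 0.11 on day 7 against day 4. The cause was not tested.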
